A study of Mus musculus with 12 samples.

Results

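Mural and smooth muscle contractile genes were followed in endothelial cells made from mouse embryonic stem cells. The set holds 8 genes: Acta2, Actg2, Tagln, Cnn1, Myl9, Des, Pdgfrb and Cspg4. Every probe that carries 1 of these symbols in the platform annotation was taken, which gave 10 probes for 7 of the 8 genes, on an array with probes for 16593 named genes. Acta2 had 4 probes, each of the other 6 genes had 1, and no probe carried the symbol Myl9. The tests below cover 9 probes of 6 genes, because the probe for Cnn1 was at background on all 12 arrays.

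The cells came from the wild type mouse stem cell line CCE, of strain 129/Sv. Embryoid bodies, small balls of differentiating stem cells, were grown for 4 days. Progenitors carrying Flk1, the VEGF receptor made from Kdr, were sorted from them and spread on collagen IV for a second period of 4 days, and cells carrying CD31, the adhesion protein made from Pecam1, were then sorted for RNA. All of the cells therefore came from Flk1-sorted progenitors and passed the CD31 sort, and each array read RNA from over 50000 of them. The 4 groups were hypoxia (1.5 to 2% oxygen) with 4 µmol/l L-685.458, hypoxia alone, normoxia (21% oxygen) with 4 µmol/l L-685.458, and normoxia alone, with 3 arrays in each. L-685.458 inhibits gamma-secretase, the protease that releases the active part of Notch receptors, and is called the inhibitor below. The series title places the question in arterial differentiation under low oxygen and the need for Notch signalling in it. The labels name the replicates biological, but do not say what arrays with the same replicate number shared, so p-values measure the spread between these arrays.

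Blood vessels have an inner layer of endothelial cells and an outer layer of mural cells, which are smooth muscle cells on larger vessels and pericytes on capillaries. Mural cells carry actin filaments and their partners for contraction, and are drawn to new vessels by PDGF-B from the endothelium, which binds the receptor PDGFR-beta. Flk1-positive progenitors from mouse embryonic stem cells can form both lineages, and CD31 is commonly used to take the endothelial one. In early differentiation some of these genes, such as Acta2 and Tagln, are also active in cells that are not mature smooth muscle.

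Serum response factor drives many contractile genes through a short DNA element, the CArG box. The start regions of the members were therefore searched for it, except Actg2, Tagln and Pdgfrb, for which no promoter sequence was at hand. The promoters of Acta2 and Des are shown as single examples, 1 for each of the pair of patterns described below. They are the 250 bases before the annotated start in RefSeq on build GRCm38.p6, for Acta2 at chr19:34255374-34255623 on the minus strand and for Des at chr1:75360042-75360291 on the plus strand. Each is written 5′ to 3′, and capitals mark a CArG box with at most 1 mismatch. The box is CC, a run of A or T, and GG, and the mismatch was allowed only within the run.
Acta2: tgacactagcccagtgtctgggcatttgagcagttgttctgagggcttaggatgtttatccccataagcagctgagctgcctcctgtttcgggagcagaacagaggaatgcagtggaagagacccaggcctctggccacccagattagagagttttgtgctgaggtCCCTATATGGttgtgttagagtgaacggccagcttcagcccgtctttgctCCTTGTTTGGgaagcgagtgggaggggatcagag
Des: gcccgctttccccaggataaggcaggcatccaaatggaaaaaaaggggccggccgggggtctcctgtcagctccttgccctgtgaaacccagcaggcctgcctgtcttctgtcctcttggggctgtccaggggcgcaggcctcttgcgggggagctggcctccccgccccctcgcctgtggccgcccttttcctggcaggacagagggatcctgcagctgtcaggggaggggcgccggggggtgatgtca
The Acta2 promoter held 2 such boxes, which began 84 and 34 bases before the start and did not overlap, and the Des promoter held none. An exact CArG box was found in 1.47% of 32851 mouse promoters of this length, and a box with at most 1 mismatch in 8.59%. The core of the hypoxia response element, ACGTG or GCGTG on either strand, was found in neither Acta2 nor Des, against 38.6% of the same promoters. Among the other members searched, Myl9 held 1 exact CArG box beginning 161 bases before its start and 1 with a mismatch beginning 99 bases before it. Cnn1 and Cspg4 held none with at most 1 mismatch. Of these other members only Cnn1 held the hypoxia core, as CACGC beginning 71 bases before its start. Tpm2, a gene outside the set that followed the members' mean below, held none either. A match describes these letters only, and whether the boxes relate to the signals was not tested.

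Signals were read as normalized log2 signal, the scale of every level below. A value is called detected when its p-value against the array's negative control probes is under 0.05, and 13085 to 13901 of 25697 probes were detected on an array. A probe was tested when it was detected on at least 3 of the 12 arrays, which left 14599 probes. Levels of different probes cannot be ranked against each other, because each binds with its own strength. The number of arrays, 3 a group, limits the precision. In pooled RNA of this kind, fewer cells of a type and less RNA per cell cannot be told apart.

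Acta2, which encodes smooth muscle alpha-actin, was detected on all 12 arrays by each of its 4 probes. Its probe 1 lay between 15.47 and 16.06 on every array. That is 40340 to 71181 in deposited units, where the brightest probe of an array read 64584 to 71181, so probe 1 was at or near the top of the scale on most arrays. It varied 1.51-fold over the 12 arrays, while the other 3 varied 3.02, 2.46 and 3.04-fold. Where the lists and the members' mean below take 1 probe a gene, Acta2 stands by probe 1, its brightest. Probe 2 was instead taken for the correlations between members. It read 14.25, 14.08 and 14.70 in hypoxia with inhibitor, 14.41, 14.31 and 13.11 in hypoxia, 14.61, 14.61 and 14.16 in normoxia with inhibitor, and 14.40, 14.37 and 13.54 in normoxia, in order of replicate number. Replicate 3 was the lowest array of 3 groups and the highest of the one with hypoxia and inhibitor, and the groups overlapped in every comparison. Probes 3 and 4 followed it: the 6 pairs among the 4 probes correlated at 0.829 to 0.979 over the 12 arrays.

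Actg2 encodes the gamma-actin of smooth muscle, typical of the gut wall. It read 8.61, 8.41 and 9.46 in hypoxia with inhibitor, 8.64, 8.33 and 6.96 in hypoxia, 9.25, 9.47 and 8.55 in normoxia with inhibitor, and 8.98, 8.91 and 7.88 in normoxia. It varied 5.72-fold over the 12 arrays, and its lowest value was again hypoxia replicate 3. Actin genes share much of their coding sequence, and whether a probe for 1 actin also binds another was not tested.

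Tagln encodes transgelin, an actin-binding protein of smooth muscle. Its values were 9.71, 9.67 and 10.43 in hypoxia with inhibitor, 10.12, 9.90 and 9.08 in hypoxia, 9.85, 9.91 and 9.66 in normoxia with inhibitor, and 10.04, 9.89 and 9.35 in normoxia. All 4 groups overlapped, and the group means lay within 9.70 and 9.93. Cnn1, which encodes calponin 1, a marker of mature contractile smooth muscle, was detected on 0 of 12 arrays, with values of 4.52 to 5.11, each under the lowest detected signal of its own array (5.08 to 5.24). No fold is given for it.

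Des encodes desmin, the intermediate filament protein of muscle, which pericytes carry too. It read 8.83, 8.56 and 8.79 in hypoxia with inhibitor, 8.79, 8.65 and 7.73 in hypoxia, 8.03, 8.26 and 6.85 in normoxia with inhibitor, and 7.79, 7.84 and 7.17 in normoxia. The 3 arrays of hypoxia with inhibitor all lay above the 3 of normoxia with inhibitor, whereas hypoxia alone overlapped normoxia alone through its replicate 3. The order of the group means was 8.73 ± 0.15 in hypoxia with inhibitor, 8.39 ± 0.58 in hypoxia, 7.71 ± 0.75 in normoxia with inhibitor and 7.60 ± 0.37 in normoxia (SD, n = 3 each). Neighbours in that order overlapped in every case. Apart from Des with the inhibitor, 0 of the 9 probes of the set had hypoxia and normoxia arrays without overlap. Of all probes, 9.97% lay wholly above and 10.1% wholly below without the inhibitor, and 7.12% above and 8.28% below with it.

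Pdgfrb encodes PDGFR-beta, the receptor through which mural cells are recruited. It read 6.82, 6.37 and 7.17 in hypoxia with inhibitor, 6.69, 6.73 and 5.03 in hypoxia, 6.96, 6.94 and 6.12 in normoxia with inhibitor, and 6.93, 6.58 and 5.42 in normoxia. It was detected on 11 of 12 arrays, and hypoxia replicate 3 was the array without it. Cspg4, which encodes the pericyte proteoglycan NG2, was dim. It read 5.62, 5.73 and 5.38 in hypoxia with inhibitor, 5.78, 5.12 and 5.29 in hypoxia, 5.79, 5.18 and 5.20 in normoxia with inhibitor, and 5.26, 5.03 and 4.71 in normoxia, and was detected on 3, 3, 2 and 1 of the 3 arrays of these groups.

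**Figure D1:**
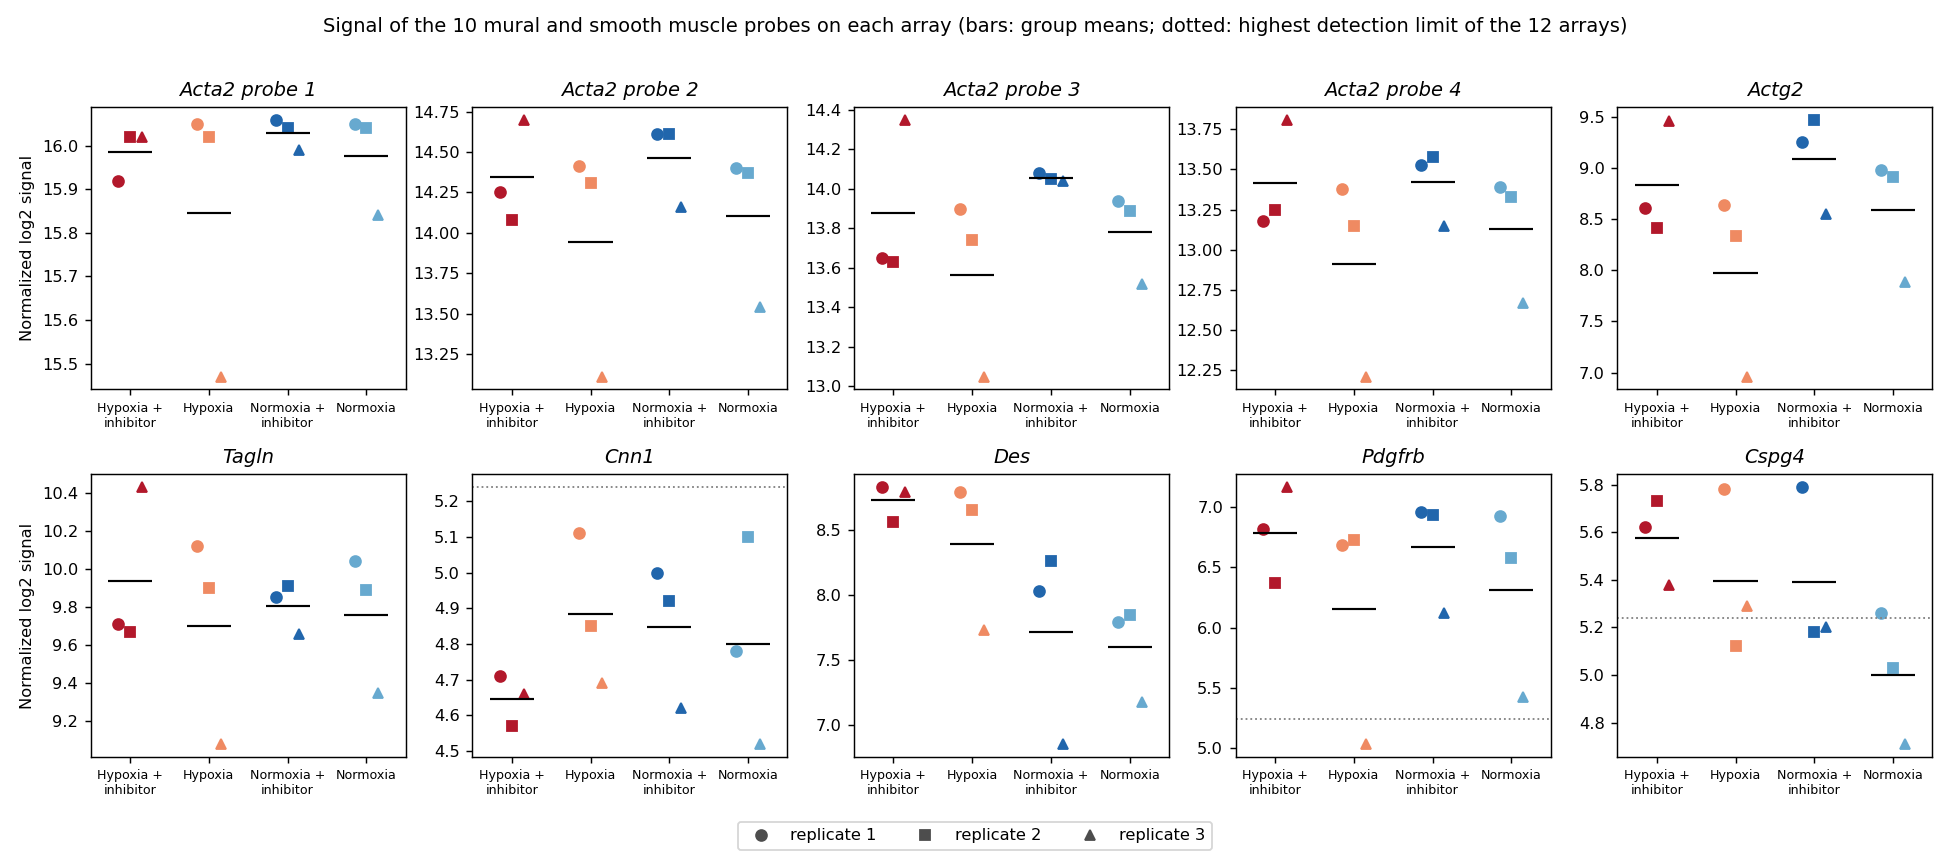
Normalized log2 signal (y axis, a separate range in each panel) of the 10 probes on the 12 arrays, by group (x axis: hypoxia with inhibitor, hypoxia, normoxia with inhibitor, normoxia). Points are arrays with the replicate number as marker, black bars are group means of 3 arrays, and the dotted line is the highest of the 12 arrays' detection limits. Replicate 3 (triangles) is the highest array of hypoxia with inhibitor for Acta2 probes 2 to 4, Actg2, Tagln and Pdgfrb, and the lowest array of the other 3 groups for the same probes.

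Hypoxia was set against normoxia first without and with the inhibitor and then averaged over both. None of the 9 probes passed the test across all probes in any of the 3 comparisons (limma, Benjamini-Hochberg adjustment over 14599 probes, threshold 0.05). The background was 1.01% of all probes called without the inhibitor, 0.856% with it and 5.3% for the average. At an unadjusted p under 0.05, 1 of the 9 passed in each comparison, Des every time, against 11.9%, 11.7% and 19.7% of all probes. Without the inhibitor 2 of the 9 estimates were above 0 and 7 below, with a median of -0.16 against -0.01 over all probes. With it 4 were above and 5 below, with a median of -0.01.

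Des had the highest estimate of the 9 probes in each of these comparisons. Hypoxia over normoxia was 0.79 on the log2 scale without the inhibitor (SE 0.36, 1.73-fold, limma adjusted p = 0.416) and 1.02 with it (SE 0.36, 2.02-fold, adjusted p = 0.275). Averaged over the inhibitor, Des was 1.87-fold higher in hypoxia, a log2 difference of 0.90 (SE 0.25, 95% interval 0.35 to 1.46), which missed the threshold in the fit of 4 group means (adjusted p = 0.0642). With the replicate number as a block it passed (adjusted p = 0.0138, 95% interval 0.51 to 1.30), where 8.85% of all probes did. Leaving out hypoxia replicate 3 alone gave 1.07 with an adjusted p of 0.0277. The estimate without and with the inhibitor did not differ beyond its error (interaction 0.22, SE 0.51, adjusted p = 1).

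The smooth muscle actins had estimates of the opposite sign. Averaged over the inhibitor, hypoxia over normoxia was -0.44 for Actg2 (SE 0.32, 95% interval -1.14 to 0.26, adjusted p = 0.502) and -0.09, -0.14, -0.20 and -0.11 for the 4 Acta2 probes. Tagln was at 0.03, with a 95% interval of -0.41 to 0.47, and Pdgfrb at -0.02, with an interval of -0.76 to 0.72. These intervals leave room for changes of either sign. Cspg4 was at 0.29 (95% interval -0.04 to 0.63).

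Most members lay lower or higher on replicate 3 than on replicates 1 and 2. Replicate 3 was the lowest array of its group for 8 of the 9 probes in hypoxia, 8 in normoxia with inhibitor and 9 in normoxia, against 38.7%, 39.3% and 40.3% of all tested probes. In hypoxia with inhibitor it was the highest for 6 of the 9 and the lowest for 1, against 39.8% and 42.7% of all probes. Actg2 varied 2.21-fold over the 8 arrays of replicates 1 and 2 and 5.67-fold over the 4 arrays of replicate 3. Pdgfrb varied 1.50-fold over those 8 arrays and at least 3.91-fold over those 4, taken against the lowest detected signal of hypoxia replicate 3, where it was not detected.

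On the 8 arrays of replicates 1 and 2 alone, the oxygen comparisons called some members. Averaged over the inhibitor, 4 of the 9 probes passed, 1 upward and 3 downward, against 19.1% of all probes. Actg2 was 1.57-fold lower in hypoxia, a log2 difference of -0.65 (SE 0.10, limma adjusted p = 0.00449), and Acta2 probes 2 and 3 were at -0.24 and -0.26 (SE 0.07 each, adjusted p = 0.0475 and 0.0345). Des was 1.65-fold higher, at 0.72 (SE 0.09, adjusted p = 0.00214). Acta2 probe 4, at -0.22, missed the threshold (adjusted p = 0.0825), and so did Tagln, at -0.08. The same 4 probes passed with the inhibitor present, where 10.1% of all probes were called, with Actg2 at -0.85 (adjusted p = 0.0111) and Des at 0.55 (adjusted p = 0.0399). Without the inhibitor only Des passed on these 8 arrays, at 0.90 (adjusted p = 0.0082), against 8.36% of all probes. With 2 arrays a group these fits have 4 residual degrees of freedom, and the arrays were left out because they stood apart in earlier results of these data.

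**Figure D2:**
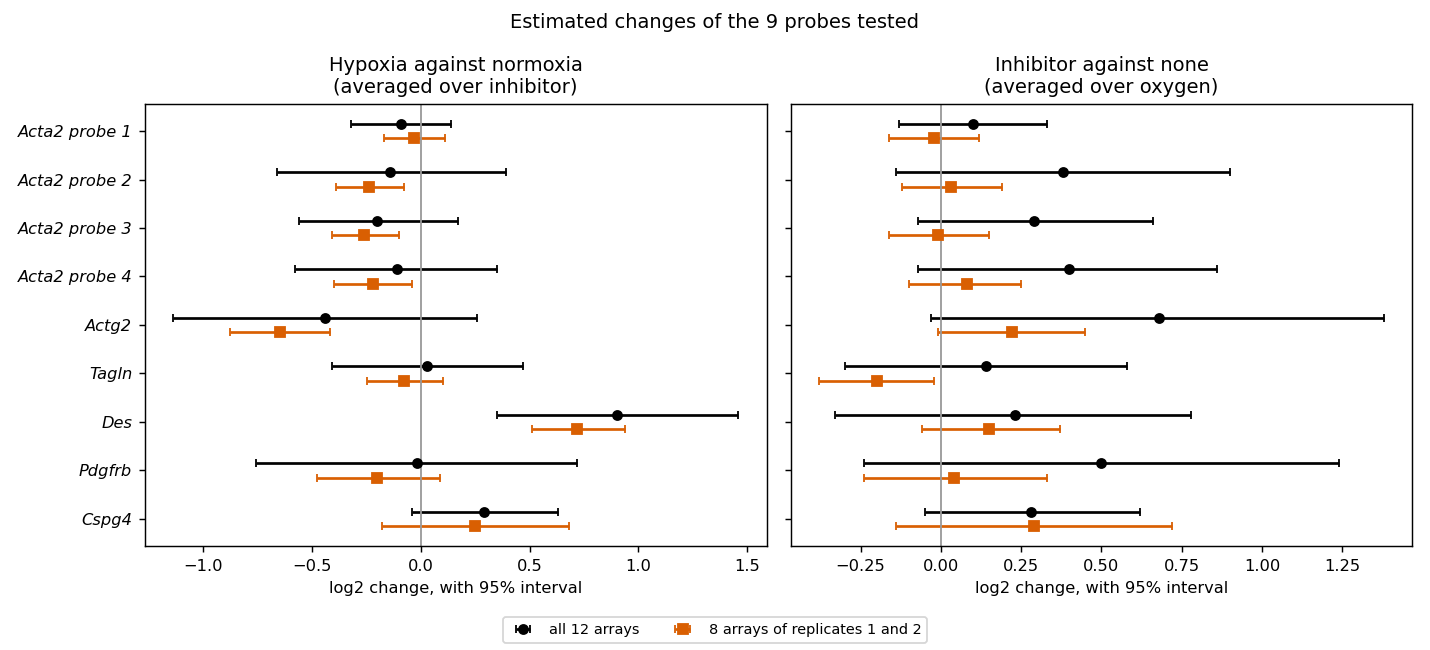
Estimated log2 change (x axis) of the 9 tested probes (y axis) for hypoxia against normoxia (left panel) and inhibitor against none (right panel, own range), each averaged over the other factor. Points are limma estimates, bars are 95% intervals, black is all 12 arrays and orange the 8 arrays of replicates 1 and 2. Des lies to the right of 0 under hypoxia in both fits, Actg2 lies to the left, and in the right panel 6 of the 9 orange points lie to the right of 0 where all 9 black points do.

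The inhibitor was set against no inhibitor at each oxygen level and averaged over both. All 9 estimates were above 0 in normoxia and in hypoxia, with medians of 0.29 and 0.34 against -0.002 and -0.001 over all probes. These signs are not independent. Acta2 alone has 4 of the 9 probes, and deviations of same-numbered arrays without inhibitor correlated at 0.30 to 0.58 between hypoxia and normoxia. None of the 9 passed the test. The background was 0% of all probes called in either comparison and 0.00685% for the average, where 1 of 14599 was called. At an unadjusted p under 0.05, 0 of the 9 passed in these 3 comparisons, against 2.05%, 4.05% and 4.34% of all probes. The highest estimate was that of Actg2, 0.68 averaged over oxygen (SE 0.32, 95% interval -0.03 to 1.38, limma adjusted p = 0.999). Only Acta2 probe 3 had 3 inhibitor arrays that all lay above the 3 others, in normoxia, which 3.19% of all probes did, while 2.86% lay wholly below. In hypoxia 0 of the 9 separated, against 4.16% of all probes upward and 4.9% downward. The direction in hypoxia turned without replicate 3: on the 8 arrays of replicates 1 and 2, 2 of the 9 estimates were above 0 and 7 below, with a median of -0.05. In normoxia 8 were above and 1 below on these arrays, with a median of 0.21. Averaged over oxygen 6 were above and 3 below, with a median of 0.04, and 0.623% of all probes were called. The interaction of oxygen and inhibitor called 0 of 14599 probes, and 0 of the 9 reached an unadjusted p under 0.05, as 1.8% of all probes did. Its estimates were above 0 for 8 of the 9 probes on 12 arrays and below 0 for all 9 on the 8 arrays of replicates 1 and 2.

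Over the 12 arrays the members divided into those that moved with Acta2 and those that did so weakly. Pearson's r with Acta2 probe 2 was 0.96 for Actg2 (Spearman's rho 0.92), 0.97 for Pdgfrb (rho 0.91) and 0.91 for Tagln (rho 0.87), with permutation p-values, adjusted over the 15 pairs of genes, of 7.5e-05, 7.5e-05 and 0.00021 for r and of 9e-04, 0.0016 and 0.0021 for rho. Without hypoxia replicate 3 and normoxia replicate 3, the arrays farthest out, r was 0.90, 0.84 and 0.74. On the 8 arrays of replicates 1 and 2 it was 0.87, 0.79 and 0.52. Des correlated with Acta2 at 0.46 (rho 0.45, adjusted p = 0.20 and 0.21), and at -0.45 on the 8 arrays, and Cspg4 at 0.34 (rho 0.28, adjusted p = 0.35 and 0.44). The permutations treat the 12 arrays as exchangeable, although the arrays form 4 groups and same-numbered arrays deviate together in most comparisons, so these p-values may be too small. The correlations describe the set and its arrays together.

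**Figure D3:**
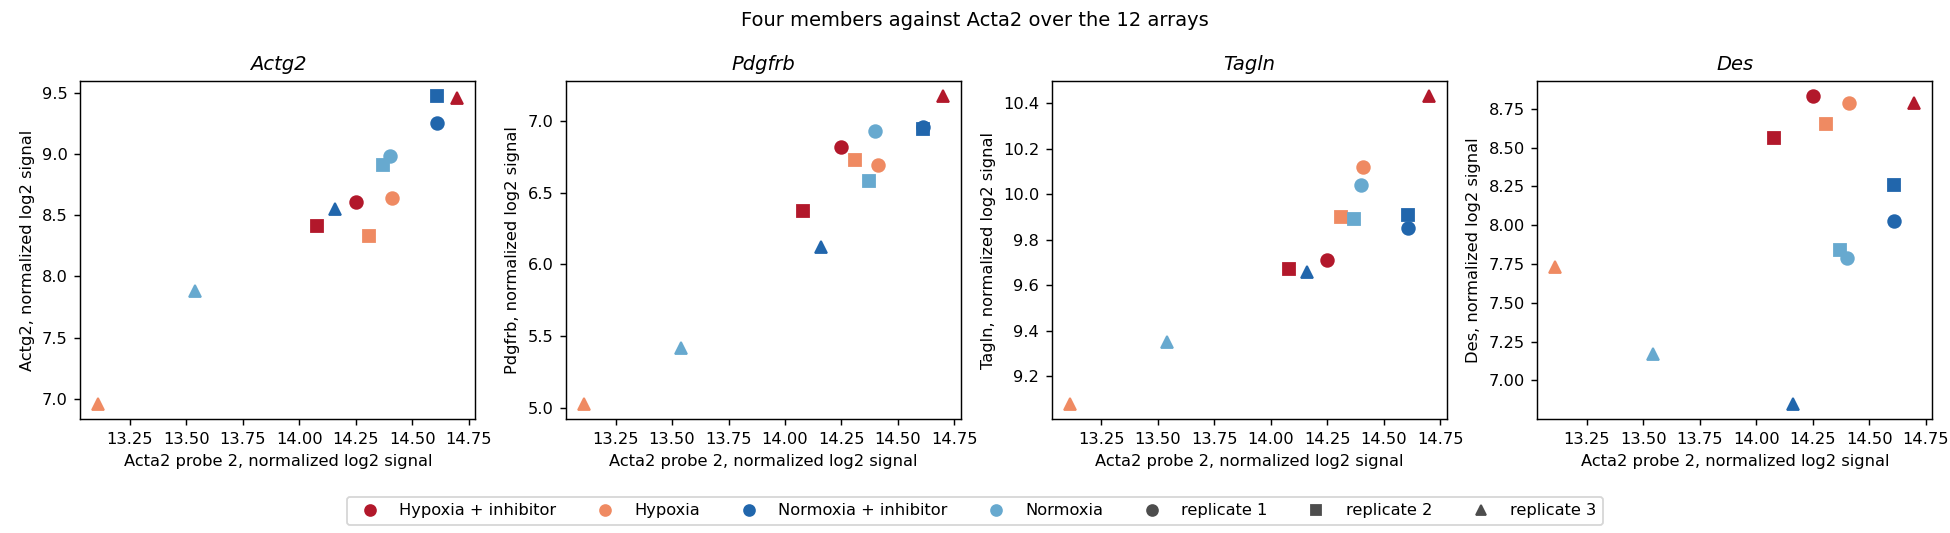
Actg2, Pdgfrb, Tagln and Des (y axes, normalized log2 signal) against Acta2 probe 2 (x axis, normalized log2 signal) over the 12 arrays, with the group as colour and the replicate number as marker. Actg2, Pdgfrb and Tagln increase with Acta2 (r of 0.96, 0.97 and 0.91), with hypoxia replicate 3 at the lower left and hypoxia with inhibitor replicate 3 at or near the upper right. Des (r of 0.46) lies higher on the arrays of hypoxia than on those of normoxia at a like Acta2 signal.

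Among 9873 genes outside the set, the 6 whose signal followed the members' mean most closely over the 12 arrays were Igfbp2, Grb10, Tpm2, Aif1l, Wnt4 and Loxl1, with r of 0.977, 0.974, 0.971, 0.967, 0.965 and 0.964. The members' mean takes 1 probe a gene, probe 1 for Acta2, centred on the gene's own mean. Tpm2 encodes a beta-tropomyosin that lies along actin filaments, and Loxl1 an enzyme that cross-links elastin. Tpm2 read 10.41, 10.48 and 11.01 in hypoxia with inhibitor, 10.60, 10.44 and 9.36 in hypoxia, 10.63, 10.62 and 9.54 in normoxia with inhibitor, and 10.56, 10.29 and 9.49 in normoxia. It had the same low arrays of replicate 3 and the same high one as Acta2, but it was chosen for following the members' mean on these same arrays. Acta2 itself, by probe 1, followed that mean at r of 0.791, and at 0.08 on replicates 1 and 2. When replicates 1 and 2 alone were used, r was 0.81 for Igfbp2, 0.80 for Tpm2 and 0.44 for Wnt4.

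Other genes of contraction were followed in a list of 30, of which 20 could be tested. For hypoxia against normoxia averaged over the inhibitor, 3 of the 20 rose and 0 fell, with a median of 0.10 against -0.01 over all genes and 2.84% of all probes called upward and 2.46% downward. Cav1, which encodes the coat protein of caveolae and is abundant in endothelium as well as smooth muscle, rose by 0.85 on the log2 scale (SE 0.13, limma adjusted p = 0.00319). Kcnmb1, the beta subunit of the calcium-activated potassium channel of smooth muscle, rose by 0.65 (SE 0.10, adjusted p = 0.00406). Mylk, the kinase that switches on smooth muscle myosin, rose by 0.64 (SE 0.12, adjusted p = 0.0115), and its other tested probe by 0.66 (adjusted p = 0.0258). Taken alone, the comparison without the inhibitor called 1 of the 20, Cav1, at 0.88 (adjusted p = 0.0419), and the one with it 1, Kcnmb1, at 0.73 (adjusted p = 0.0424). Kcnmb1 read 6.38, 6.26 and 6.45 in hypoxia with inhibitor and 6.66, 6.70 and 6.53 in hypoxia, against 5.64, 5.34 and 5.92 in normoxia with inhibitor and 6.04, 6.0 and 6.15 in normoxia. Its 6 hypoxia arrays all lay above its 6 normoxia arrays, replicate 3 included. How many of all probes separate so was not counted, and Kcnmb1 is named because these same arrays called it. With 3 arrays against 3, 9.97% of all probes lay wholly above without the inhibitor and 7.12% with it. Smtn, which encodes smoothelin, was at 0.56 and missed the threshold (adjusted p = 0.0551), but passed with the replicate block (adjusted p = 0.00438) and on replicates 1 and 2 alone (adjusted p = 0.00349). Myh11, the myosin heavy chain that defines mature smooth muscle, was detected on 1 of 12 arrays. Replicates 1 and 2 alone gave 5 of the 20 that rose and 3 that fell. Of all probes, 9.41% were called upward on these arrays and 9.66% downward.

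Pericyte genes outside the set did not move one way. Of 18 listed, 7 could be tested, and in hypoxia averaged over the inhibitor 2 rose and 1 fell. The background there was 2.84% of all probes called upward and 2.46% downward. Rgs4, a regulator of G protein signalling, rose by 1.01 (SE 0.25, limma adjusted p = 0.0408) and Anpep, which encodes aminopeptidase N, by 0.86 (SE 0.17, adjusted p = 0.0134). Notch3, the Notch receptor of mural cells, fell by 0.70 (SE 0.13, adjusted p = 0.0131). Notch3 read 6.83, 6.74 and 6.80 in hypoxia with inhibitor and 7.31, 7.23 and 6.56 in hypoxia, against 7.69, 7.63 and 7.39 in normoxia with inhibitor and 7.69, 7.84 and 7.41 in normoxia. All 6 hypoxia arrays lay below all 6 normoxia arrays. That share of all probes was not counted either, and Notch3 too is named because these arrays called it. With 3 arrays against 3, 10.1% of all probes lay wholly below without the inhibitor and 8.28% with it. Rgs5, Higd1b and Vtn, pericyte markers in adult tissue, were detected on 0 of 12 arrays and Kcnj8 on 1. Replicates 1 and 2 alone gave 2 that rose and 2 that fell, with Foxc2 as the addition, where 19.1% of all probes were called.

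Of 16 tested regulators of the smooth muscle programme, 0 were called in hypoxia averaged over the inhibitor, against 5.3% of all probes. Srf, the serum response factor itself, was at 0.34 (SE 0.11, limma adjusted p = 0.107), and its cofactor Fhl2 at 0.34 (SE 0.21, adjusted p = 0.425). Fhl1, of the same protein family as Fhl2, was at 0.33 (adjusted p = 0.311). Srf, Tead4 and Hand1 rose when replicates 1 and 2 were fitted alone. That made 3 of the 16 called, where 19.1% of all probes were. Among 22 tested genes of the PDGF, TGF-beta and S1P signals that recruit mural cells, 1 rose and 1 fell in the fit of all 12 arrays. That fit called 2.84% of all probes upward and 2.46% downward. Ednrb, the endothelin B receptor, rose by 1.12 (SE 0.29, adjusted p = 0.0443), as did its other 2 probes, and Tgfb1, the ligand TGF-beta 1, fell by 0.41 (SE 0.10, adjusted p = 0.0378). Pdgfb, the ligand of PDGFR-beta, was at 0.01 (SE 0.11, adjusted p = 0.985). Of these 22 genes, 2 rose and 5 fell on replicates 1 and 2 alone, where 19.1% of all probes were called.

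The other actins were compared because they share most of their protein with the smooth muscle forms. None of the 4 was called in hypoxia averaged over the inhibitor, and Acta1, the skeletal form, fell only on the 8 arrays of replicates 1 and 2, by 0.84 (limma adjusted p = 0.000865), as Actg2 did there. Actc1, the cardiac form, read 8.21, 8.23 and 8.47 in hypoxia with inhibitor, 8.17, 7.76 and 7.34 in hypoxia, 8.09, 8.04 and 6.47 in normoxia with inhibitor, and 8.03, 8.12 and 5.52 in normoxia. Its arrays of replicate 3 were low in 3 groups, as for the members. Of 8 tested striated and cardiac muscle genes, 2 rose in hypoxia, Nppb by 1.51 (SE 0.33, adjusted p = 0.0239) and Myl4 by 1.38 (SE 0.32, adjusted p = 0.0301), which encode B-type natriuretic peptide and an atrial and fetal myosin light chain. The cardiac markers Myh6, Myh7, Myl2, Myl7 and Tnni3 were detected on 0 arrays. Replicates 1 and 2 alone added Tnnc1, which fell. For hypoxia averaged over the inhibitor, 2.84% of all probes were called upward and 2.46% downward with every array fitted. On the 8 arrays of replicates 1 and 2 these shares were 9.41% and 9.66%.

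Markers of the cell types the sort could hold differed between arrays, as the members did. Pecam1, the gene of the sorting marker, and Cdh5, which encodes VE-cadherin, were detected on all 12 arrays, at means of 12.24 and 10.65. The summed linear signal of 19 endothelial genes was 84406 to 108451 in hypoxia with inhibitor, 104044 to 132127 in hypoxia, 89905 to 122934 in normoxia with inhibitor and 101693 to 128364 in normoxia. Replicate 3 held the lowest of these in hypoxia with inhibitor and the highest in the other 3 groups, the reverse of Acta2. The linear sum of 11 mesenchyme and fibroblast genes, weighted to bright ones such as Col5a1, was 14784 on replicate 3 of hypoxia with inhibitor. It was 6523 on that of hypoxia, and these were its highest and lowest values. The mean centred log2 signal of the list was 0.65 and -0.35 on these arrays. In normoxia with inhibitor that mean was 0.02, 0.08 and 0.05 in order of replicate number, so replicate 3 was not low there, unlike Acta2 probe 2. Col1a2, of that list, rose in hypoxia averaged over the inhibitor by 0.88 (SE 0.18, limma adjusted p = 0.0199). Vwf, the von Willebrand factor gene, rose by 1.22 (SE 0.21, adjusted p = 0.0071) and was the only one of the 19 endothelial genes called. Replicates 1 and 2 alone called 8 endothelial genes upward and 2 downward, and 4 mesenchyme genes upward and 2 downward. The background was 2.84% of all probes called upward on 12 arrays, and 9.41% upward and 9.66% downward on the 8. The part of these markers in the members' spread was not tested.

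Pluripotency markers also differed between arrays. Their summed signal over 11 genes was 7930, 7859 and 2396 in hypoxia with inhibitor, 10003, 11713 and 10492 in hypoxia, 21399, 20977 and 3428 in normoxia with inhibitor, and 24818, 24611 and 10616 in normoxia. In hypoxia averaged over the inhibitor 0 of the 11 were called on 12 arrays, with a median of -0.64, whereas 10 of the 11 fell on the 8 arrays of replicates 1 and 2, the same arrays on which Actg2 and Acta2 passed. Of 8 tested haematopoietic genes, Laptm5 rose by 0.74 (limma adjusted p = 0.000981), the embryonic globins Hba-x and Hbb-y fell by 0.96 and 1.22 (adjusted p = 0.0116 and 0.0221), and Ptprc, the pan-leukocyte marker, was detected on 0 arrays. Of 8 genes of the endothelial to mesenchymal transition and 3 endoderm genes, 0 were called on 12 arrays, against 2 that fell and 1 that rose in replicates 1 and 2. The background for these lists was 5.3% of all probes called on 12 arrays and 19.1% on the 8. The part of these markers in the members' values was not tested.

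**Figure D4:**
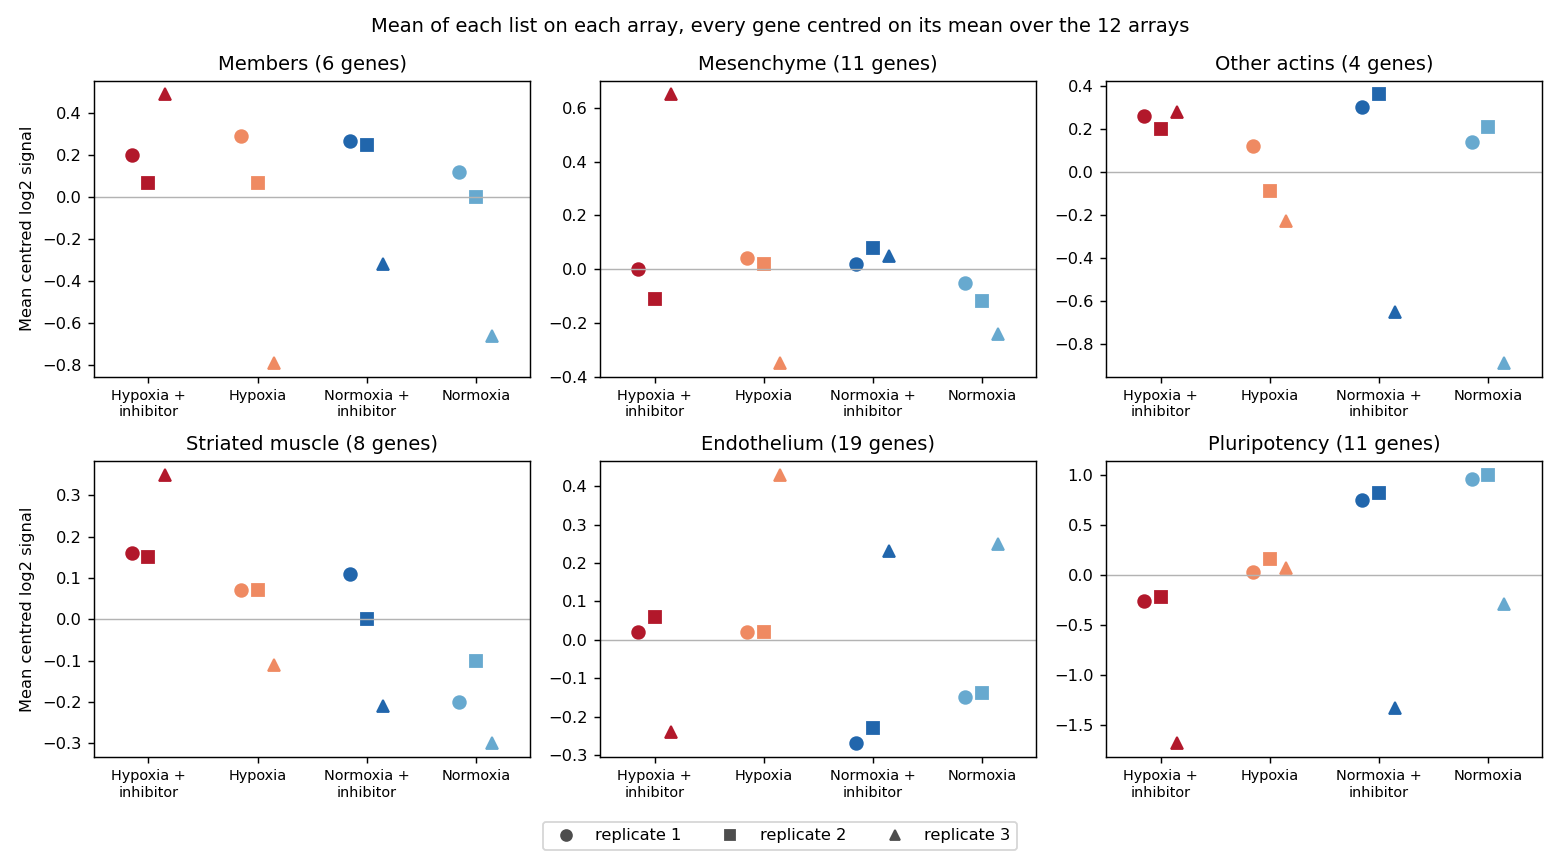
Mean log2 signal of 6 gene lists on each array (y axes, each gene centred on its own mean over the 12 arrays, a separate range in each panel) by group (x axis), with the replicate number as marker. For the members, replicate 3 lies at 0.49 in hypoxia with inhibitor, -0.79 in hypoxia, -0.32 in normoxia with inhibitor and -0.66 in normoxia, and for the 19 endothelial genes at -0.24, 0.43, 0.23 and 0.25 in the same groups. Acta2 stands by its probe 1.

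The inhibitor called none of the tested genes in any of these 12 lists, at either oxygen level or on average. Replicates 1 and 2 alone called Klf4 upward (0.67, limma adjusted p = 0.0268) and Rgs4 downward (-0.42, adjusted p = 0.0482) on average over oxygen. The lists of other contractile genes, pericyte genes and regulators had median changes of 0.03, -0.05 and 0.08 averaged over oxygen, with 0.00 over all genes, beside 0.25 for the 6 members. The members' median takes Acta2 by its probe 1, at 0.10, whereas its probes 2, 3 and 4 were at 0.38, 0.29 and 0.40. The 4 other actins had a median of 0.31, and the 11 mesenchyme genes one of 0.14. The 19 endothelial genes had a median of -0.14, with 17 estimates below 0, and the 11 pluripotency genes one of -0.71, with all 11 below 0. These too rested in part on replicate 3. In hypoxia 18 of the 19 endothelial estimates were below 0 on 12 arrays, but most were above 0 on replicates 1 and 2 alone. Most of the 11 pluripotency estimates in hypoxia were smaller in size on those arrays. The part of these markers in the members' upward estimates was not tested. Dcn and Lum, which encode proteoglycans of connective tissue, were at 0.80 and 0.97 (SE 0.22 and 0.28, limma adjusted p = 0.88 and 0.959).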

How the data were processed

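The deposited non-normalized table gives, per the file headers, an intensity for each probe on each array, on a linear scale with background already subtracted (23.3% of values are below 0), and a detection p-value. The submitters' processing notes name BeadStudio as software. A table of intensity that the authors had processed, floored at 20, served only as an alternative. In R 4.3.3, limma 3.58.1 corrected background by a normal-exponential fit (nec, which reads the deposited detection p-value), added an offset of 16, quantile normalized the arrays and took log2. Probes detected at p under 0.05 on at least 3 of 12 arrays (14599 of 25697) were fitted as 4 group means, with moderated variances, two-sided tests and Benjamini-Hochberg adjustment over all 14599 in each of 7 comparisons. The "averaged" comparisons take the mean over the other factor.

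Probes were named from the platform annotation supplied with the series; 23978 carry 1 symbol and 1719 none. Where a list needs 1 probe a gene, the tested probe with the highest mean signal stands for it. For the named genes, all members were given whatever their result, and from each other list up to 4 called genes a comparison, largest change first, or up to 3 of the brightest where none was called. Other genes named from the lists (Smtn, Srf, Klf4, Tnnc1, Fhl2, Pdgfb, Actc1, Acta1, Dcn, Lum, Foxc2, Tead4 and Hand1) were chosen after their values were seen. The members and the 12 other lists (200 entries, 182 with a probe) were chosen with earlier results of these data known.

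Same-numbered arrays' deviations from their group means correlated at 0.30 to 0.58 for hypoxia against normoxia without the inhibitor, 0.11 to 0.25 with it, 0.38 to 0.64 for the inhibitor in normoxia and 0.03 to 0.08 in hypoxia. By the rule used, each correlation over 0.1, replicate numbers pair all but the last. The pairing comes from these correlations, since what a number shares is not in the labels. The fit was tested on simulated data with independent noise on each array. That simulation held no shared deviations of same-numbered arrays, so it cannot speak to them. Correlations used 1e+05 permutations. Promoter sequences are RefSeq's, on GRCm38.p6, and were matched by symbol. Actg2, Tagln and Pdgfrb had no promoter among them and were not searched. Python 3.11.15 with matplotlib 3.10.9 drew the figures.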

Additional observations from a re-analysis of the deposited data

How the results depend on the processing

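The results were recomputed with the replicate block, without the filter on dim probes, with an offset of 50, with scaling by the 75th percentile, from the authors' processed table, without each array in turn and on the 8 arrays of replicates 1 and 2. For hypoxia averaged over the inhibitor, 0 member probes were called, against 1 (Des) with the replicate block, 1 with an offset of 50, 4 on the 8 arrays, and 0 to 1 leaving out each array, the 1 being without hypoxia replicate 3. On the 8 arrays, 1 member probe was called without the inhibitor and 4 with it, against 0 on all 12. The replicate block changed no other call of a member. The estimate for Des kept its sign under all 18 alternatives, at 0.69 to 1.07 with adjusted p of 0.00214 to 0.15, and that of Actg2 at -0.65 to -0.18 with adjusted p of 0.00449 to 0.777. Of 162 recomputed member estimates in each comparison, the other sign was taken by 15 for hypoxia averaged over the inhibitor, 10 without it, 12 with it, 8 for the inhibitor in normoxia, 11 in hypoxia, 4 averaged over oxygen and 29 for the interaction; the cause was not tested. No member was called for the inhibitor or the interaction under any of these alternatives.

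Over all probes, the 148, 125 and 774 calls for hypoxia without inhibitor, with it and averaged became 319, 257 and 1292 with the replicate block, 1220, 1468 and 2784 on the 8 arrays, and 26 to 335, 34 to 256 and 404 to 1055 leaving out each array. For the inhibitor, the 8 arrays called 13 in normoxia, 39 in hypoxia and 91 averaged, against 0, 0 and 1 on 12. The counts for the lists on the 8 arrays were added after the data were seen. The dimmest members, Cspg4 and Pdgfrb, lie close to the detection limit on some arrays, and Acta2 probe 1 near the top of the scale, which limits what changes these probes can show. Scaling moved the median of all probes by at most 0.016.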
